A study of Mus musculus with 6 samples.

Results

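Junction genes of the blood-testis barrier were followed in whole testis of wild-type and Phf13 knockout mice. The set comprised 35 genes of tight, gap, adherens and desmosome junctions and of their actin and integrin anchors, a named list matched by gene symbol and drawn up with earlier results of these data known, and all 35 were found among 18193 named genes. Together they were measured by 96 of 45037 probe sets, the groups of short probes that each give 1 value on an Affymetrix array. Total RNA came from testes of mice aged 5 weeks, with 3 arrays of wild-type mice and 3 of mice lacking Phf13, which encodes a nuclear protein that reads a methylation mark on histone H3. The labels name no strain, no further allele and no deleted exons, and do not say whether each array stands for another animal or for pooled animals, which leaves the p-values as measures of the spread among 6 arrays, a spread that may be technical.

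The blood-testis barrier is made by neighbouring Sertoli cells, the somatic cells of the seminiferous tubule, near the base of the epithelium. Claudins and occludin seal the space between the cells, cadherins, nectins and desmosomal proteins hold them together, connexins form channels, and a layer of bundled actin called the ectoplasmic specialization backs the junctions. The barrier opens and reforms as spermatocytes pass through it, and related junctions hold spermatids at the Sertoli cell surface.

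Phf13 itself was at 9.55, 9.47 and 9.56 (log2) on the wild-type arrays and 6.71, 6.60 and 6.55 on the knockout arrays. It fell by 2.91 with limma's adjusted p = 7.7e-06, so the targeted gene went with the label on all 6 arrays. The median log2 value of the arrays lay between 5.22 and 5.28 and the lower quartile between 3.66 and 3.75. The arrays came in 2 sets that stood apart in 18S ribosomal RNA. Its control probes averaged 12.03 to 12.67 on knockout 1 and wild type 1 and 2, and 9.69 to 10.71 on knockout 2 and 3 and wild type 3. The difference between 3' and 5' probes of the actin control, a sign of RNA and labelling quality, was 0.75 to 0.89 in the first set and 0.56 to 0.59 in the second. Inside each set the 18S mean was lower in knockout, so the differences are also given set by set. Defining testis transcripts were present, since 9 genes of elongating spermatids averaged 13.16 to 13.22 on the 6 arrays.

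At an unadjusted threshold, a minority of the junction genes was higher in knockout testis and a single one was lower, each by less than a doubling. With 1 probe set per gene, the one with the highest mean over all arrays, 9 of 35 genes were higher and 1 was lower with limma's unadjusted p below 0.05. These were F11r, Gja1, Cldn11, Ctnna1, Itga6, Vcl, Nectin2, Cldn3 and Ctnnb1 on the higher side and Dsp on the lower. Over all 18193 genes, 8.58% were higher and 8.72% lower by this rule, 17.3% in either direction. No junction gene passed after Benjamini-Hochberg adjustment over all probe sets, where 0.137% of all genes did. The smallest limma adjusted p of the 35 was 0.131; 1 gene passed with an intensity trend and robust moderation and 7 with array weights. Over all 45037 probe sets these settings called 66 higher and 44 lower, and 1654 higher and 1532 lower, against 25 and 20 without them. The median difference over the 35 genes was 0.03, against 0.01 over all genes, with 19 genes above 0 and 16 below. In whole tissue, a change in the number of cells of a type and a change in RNA per cell cannot be told apart. The same 10 genes were those whose knockout and wild-type arrays did not overlap, 9 above and 1 below, against 9.92% and 13.5% of all genes, 23.5% in either direction.

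**Figure D1:**
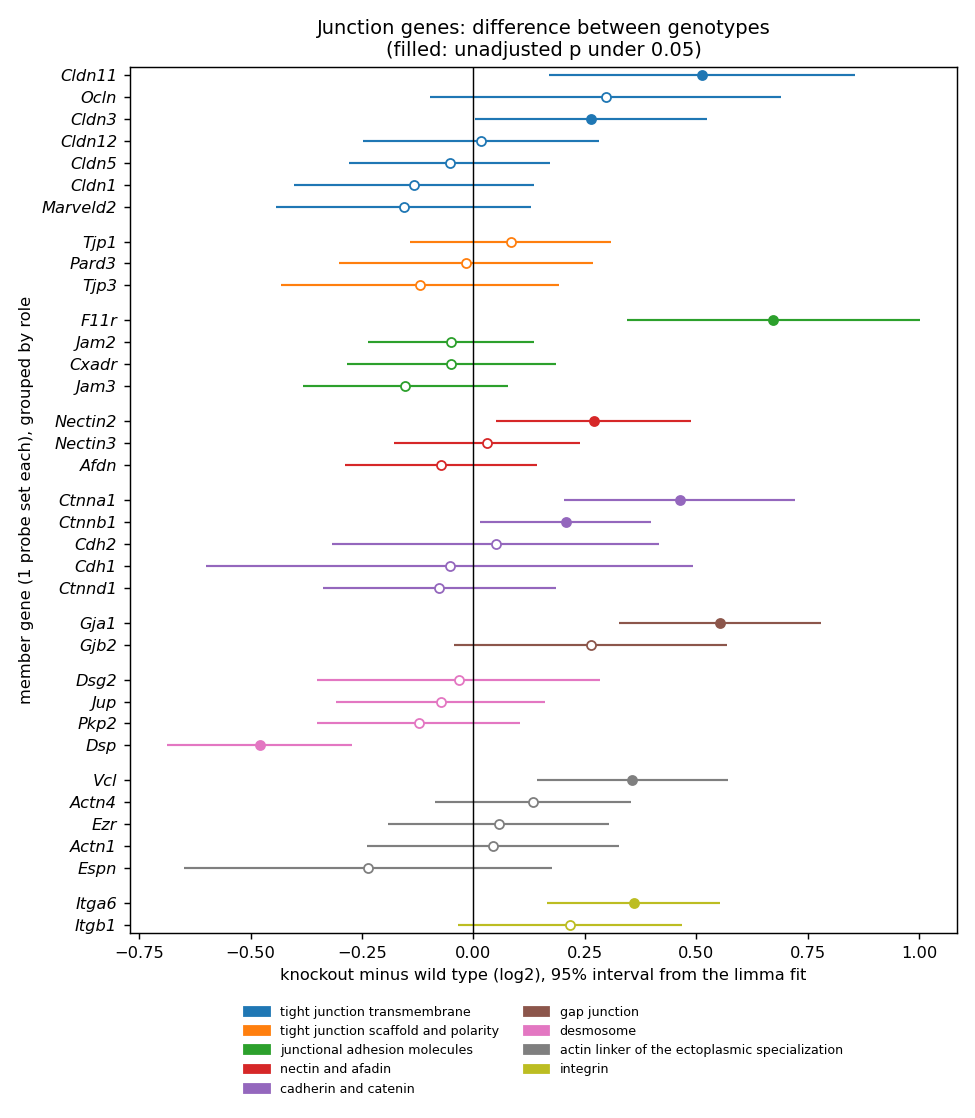
Knockout minus wild-type difference of each of the 35 junction genes on the log2 scale, grouped and coloured by role; bars are 95% intervals from the limma fit and filled points have an unadjusted p under 0.05. The 9 filled points to the right run from 0.21 (Ctnnb1) to 0.67 (F11r), and Dsp, at -0.48, is the only filled point to the left.

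Printed here are the RefSeq start-site windows of the 3 genes with the largest positive differences, F11r, Gja1 and Cldn11, and of Dsp. By the brightest probe sets, Dsp was the only junction gene lower at the threshold. The genes that went opposite ways can thus be set side by side. Each window holds 300 bases of GRCm38.p6, 250 before the start of the gene and 50 after, 5' to 3' on the gene's strand. They lie at chr1:171437311-171437610 for F11r, chr10:56377050-56377349 for Gja1, chr3:31149670-31149969 for Cldn11 and chr13:38151044-38151343 for Dsp, all on the plus strand. Capitals mark matches on either strand to TGAGTCA, the AP-1 motif, or to GGGCGG, the GC box; neither motif contains the other.
F11r: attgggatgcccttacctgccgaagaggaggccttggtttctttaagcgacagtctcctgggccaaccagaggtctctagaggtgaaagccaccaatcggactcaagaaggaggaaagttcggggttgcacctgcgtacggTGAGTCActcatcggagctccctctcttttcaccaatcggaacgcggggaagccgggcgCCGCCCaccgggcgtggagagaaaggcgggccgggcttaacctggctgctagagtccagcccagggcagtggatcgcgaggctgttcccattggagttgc
Gja1: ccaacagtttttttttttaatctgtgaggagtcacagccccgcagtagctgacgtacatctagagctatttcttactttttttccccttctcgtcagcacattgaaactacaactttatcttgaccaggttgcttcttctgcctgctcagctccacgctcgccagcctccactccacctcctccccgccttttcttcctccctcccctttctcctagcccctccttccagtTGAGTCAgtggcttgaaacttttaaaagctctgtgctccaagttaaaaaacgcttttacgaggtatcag
Cldn11: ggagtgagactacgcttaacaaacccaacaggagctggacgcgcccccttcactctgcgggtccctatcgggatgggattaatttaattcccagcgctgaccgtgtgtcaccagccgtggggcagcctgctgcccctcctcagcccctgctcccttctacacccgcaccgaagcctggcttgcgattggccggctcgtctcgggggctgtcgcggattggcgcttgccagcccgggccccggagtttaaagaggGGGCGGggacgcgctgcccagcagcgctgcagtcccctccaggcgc
Dsp: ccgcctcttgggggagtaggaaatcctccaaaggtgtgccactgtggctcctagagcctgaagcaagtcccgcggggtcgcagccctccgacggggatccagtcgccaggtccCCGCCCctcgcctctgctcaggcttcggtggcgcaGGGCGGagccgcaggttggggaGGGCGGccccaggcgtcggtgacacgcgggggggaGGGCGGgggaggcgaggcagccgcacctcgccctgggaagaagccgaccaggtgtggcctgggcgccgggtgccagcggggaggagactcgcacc
The AP-1 letters occurred once in F11r and once in Gja1 and were not in the windows of Cldn11 and Dsp. Of 26 junction genes with a window, 3 held them, the other one being Ezr. Counted by window, this was 3 of 36, or 8.33%, against 5.2% of all 32851 windows and 4.66% of the 21262 windows of protein-coding genes. GC boxes numbered 4 in Dsp, 1 in F11r, 1 in Cldn11 and 0 in Gja1. They were found in 28 of the 36 windows, or 77.8%, against 35.7% of all windows and 46.2% of those of protein-coding genes. Of the other motifs searched on both strands, CCAAT was in 44.4% of the junction windows and 37.4% of all windows, TATAAA in 13.9% and 13.6%, AACAAT in 0% and 10.7%, and TGACGTCA in 2.78% and 1.79%. Matches describe the letters only.

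Tight junction strands are built from claudins, occludin and tricellulin. Cldn11, the claudin that forms the Sertoli cell strands of the barrier, was at 8.73, 9.25 and 9.27 on the wild-type arrays and at 9.49, 9.65 and 9.65 on the knockout arrays. All knockout arrays lay above all wild-type arrays, and wild type 1 was well below its group. The difference was 0.51 (SE 0.15, 95% interval 0.17 to 0.86; limma adjusted p = 0.221), a 1.43-fold higher level. The Cldn11 difference was 0.34 without wild type 1 and 0.32 when arrays with consecutive title codes were treated as a block. By set it was 0.50 and then 0.38.

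Cldn3, a claudin of newly formed barrier junctions, was at 7.11, 6.83 and 7.15 in wild type and 7.17, 7.37 and 7.34 in knockout. Wild type 3 and knockout 1 nearly met, and the difference of 0.26 (SE 0.11, limma adjusted p = 0.327) was no longer past the unadjusted threshold in 9 of 16 alternatives. It was 0.16 without wild type 2. The other 3 probe sets of Cldn3 differed by 0.15 to 0.36, in the same direction. Ocln, which encodes occludin, was at 6.27, 6.64 and 6.55 in wild type and 6.40, 6.95 and 7.0 in knockout. Its knockout 1 array lay among the wild-type values, and the difference of 0.30 (95% interval -0.10 to 0.69) did not pass. The second Ocln probe set differed by 0.32. The other strand genes gave values close to 0 or below: Cldn12 differed by 0.02, Cldn5, a claudin also known from endothelium, by -0.05, Cldn1 by -0.13 and Marveld2, which encodes tricellulin of tricellular contacts, by -0.16. The second Cldn12 probe set differed by -0.19. Cldn1 was dim, at 4.02 ± 0.16 in wild type (SD, n = 3), and so was Marveld2, at 3.94 ± 0.17 (SD, n = 3). The other 3 Cldn1 probe sets, dimmer still, went the other way, at 0.05 to 0.20. No background level was used, so differences at such levels are uncertain.

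The scaffold under the strands showed no member past the threshold. Tjp1, which encodes ZO-1, the adaptor that ties claudins and occludin to actin, was at 8.90, 9.05 and 8.78 in wild type and 9.06, 8.97 and 8.95 in knockout. The groups overlapped, and the difference of 0.08 had a 95% interval from -0.14 to 0.31. Without wild type 3 it was 0.02, and without wild type 2 it was 0.15. Tjp3 (ZO-3) differed by -0.12 and the polarity gene Pard3 by -0.02, both with overlapping groups.

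F11r, which encodes junctional adhesion molecule A, had the largest difference of the 35 genes. Its values were 7.07, 7.16 and 7.18 in wild type and 7.47, 8.0 and 7.96 in knockout. Every knockout array was above every wild-type array, and knockout 1 was the lowest of its group. The difference was 0.67 (SE 0.14, 95% interval 0.34 to 1.00; limma adjusted p = 0.163), a 1.59-fold higher level, with 0.36 in the first set and 0.80 in the second. Without knockout 1, F11r passed over all probe sets, with limma's adjusted p = 0.0308. That setting called 140 probe sets higher, against 25 with all arrays. With any other array left out F11r did not pass, at limma adjusted p of 0.0718 to 0.529. Its second, dimmer probe set differed by 0.07, and the mean of both probe sets by 0.37.

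The other adhesion molecules of this family did not follow F11r. Jam2 had a wild-type mean of 7.87 ± 0.02 and a knockout mean of 7.82 ± 0.05 (SD, n = 3 each), a difference of -0.05. Jam3, known for its part in spermatid polarity, differed by -0.15 and Cxadr, the coxsackievirus and adenovirus receptor, by -0.05. A dimmer Jam2 probe set had means of 5.80 ± 0.04 and 6.24 ± 0.18 (SD, n = 3 each), a difference of 0.44 with groups that did not overlap, while the remaining Jam2 probe sets ran from -0.09 to 0.18. The Jam2 probe sets therefore disagreed.

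Nectins pair across the contact between Sertoli cells and spermatids, with nectin-2 known on the Sertoli side and nectin-3 on the spermatid side. Nectin2 was at 7.90, 7.77 and 7.70 in wild type and 7.96, 8.09 and 8.13 in knockout. Wild type 1 and knockout 1 were close, and the other knockout arrays stood higher. The difference of 0.27 (SE 0.10, limma adjusted p = 0.263) missed the unadjusted threshold in 5 of 16 alternatives, and the second Nectin2 probe set differed by 0.05, the mean of both by 0.16. Nectin3 was at 11.97 ± 0.10 in wild type (SD, n = 3) and differed by 0.03 in knockout, with a 95% interval from -0.18 to 0.24. A second bright probe set differed by 0.01, whereas a dimmer one, at 7.31 ± 0.23 and 6.88 ± 0.16 (SD, n = 3 each), differed by -0.42. Its groups met at 7.06, and it passed the unadjusted threshold (limma unadjusted p = 0.0139). Afdn, the afadin that links nectins to actin, differed by -0.07.

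By the brightest probe sets of the adherens junction genes, the catenins differed in part and the cadherins did not pass. Ctnna1, which encodes alpha-catenin, the link from cadherin to actin, was at 9.23, 9.40 and 9.49 in wild type and 9.66, 9.90 and 9.95 in knockout. The groups did not overlap, with a difference of 0.46 (SE 0.11, 95% interval 0.20 to 0.72; limma adjusted p = 0.193). The probe set used here has a name ending in x_at and may cross-hybridize. A second bright probe set, without that ending, was at 9.0, 8.89 and 8.87 in wild type and 9.20, 9.32 and 9.35 in knockout. Its difference was 0.37. The other 2 probe sets were dim and differed by -0.21 and -0.05, and with them averaged in the Ctnna1 difference was 0.14 and no longer past the unadjusted threshold.

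Ctnnb1, which encodes beta-catenin, was at 10.10, 10.17 and 10.08 in wild type and 10.27, 10.32 and 10.38 in knockout. The arrays were tight in both groups and did not overlap, but the difference was only 0.21 (SE 0.08, limma adjusted p = 0.304). The other Ctnnb1 probe sets differed by 0.06 and -0.25, so that their mean differed by 0.00, and 8 of 16 alternatives put Ctnnb1 outside the unadjusted threshold. Ctnnd1, which encodes p120 catenin, differed by -0.08. Cdh2, N-cadherin, the main cadherin between Sertoli and germ cells, differed by 0.05, with wild-type arrays spread from 8.67 to 9.35. Its second probe set went the other way, from a wild-type mean of 8.43 ± 0.12 to a knockout mean of 8.15 ± 0.07 (SD, n = 3 each). This was a difference of -0.28 with groups that did not overlap, and it passed the unadjusted threshold (limma unadjusted p = 0.0175). Cdh1, E-cadherin, had means of 2.68 ± 0.33 and 2.62 ± 0.46 (SD, n = 3 each), under the lower quartile of every array.

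Gap junction channels couple Sertoli cells with each other and with germ cells, and Gja1 encodes the main connexin among them. Its brightest probe set was at 9.61, 9.72 and 9.81 in wild type and 10.14, 10.30 and 10.36 in knockout. Every knockout array was higher than every wild-type array. The difference of 0.55 (SE 0.10, 95% interval 0.33 to 0.78) was a 1.47-fold higher level and had the smallest p of the 35 genes (unadjusted p = 0.00045, adjusted p = 0.131, both limma).

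Most probe sets of Gja1 gave a like difference. Of its 6 probe sets 5 were higher at an unadjusted p under 0.05, with differences of 0.38 to 0.61 and groups that did not overlap, and the dimmest, at 3.88 ± 0.25 in wild type (SD, n = 3), differed by -0.11. These probe sets read the same gene on the same arrays and are not replicates. Those with names ending in x_at may cross-hybridize. They include the brightest, and of the 5 that were higher only the one at 0.61 lacks this ending. By set the Gja1 difference was 0.48 and then 0.52. Without wild type 3, Gja1 passed over all probe sets, with limma's adjusted p = 0.0324. That setting called 178 probe sets higher and 998 lower, against 25 and 20 with all arrays. With any other array left out Gja1 did not pass, at limma adjusted p of 0.0596 to 0.529. Gjb2, another connexin gene, was dim, at 4.0, 4.24 and 4.53 in wild type and 4.57, 4.46 and 4.53 in knockout, and its difference of 0.26 did not pass.

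By the brightest probe sets, Dsp was the only one of the 35 genes lower in knockout at the unadjusted threshold. It encodes desmoplakin, which ties desmosomes to intermediate filaments. Its values were 5.54, 5.54 and 5.52 in wild type and 5.00, 5.18 and 4.98 in knockout. Wild-type arrays were nearly equal, and all knockout arrays lay below them. The difference was -0.48 (SE 0.09, 95% interval -0.69 to -0.27; limma adjusted p = 0.144), a 1.39-fold lower level. A second Dsp probe set was at 5.25, 5.29 and 5.26 in wild type and 4.75, 4.70 and 4.69 in knockout. Its difference of -0.55 (SE 0.08) had limma's adjusted p = 0.0685, the smallest of all 96 probe sets. The dimmest Dsp probe set differed by 0.09, and the mean of all 3 by -0.31.

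By their brightest probe sets, the other desmosome genes lay near 0, all on the negative side. Pkp2, plakophilin 2, differed by -0.12, Jup, plakoglobin, by -0.07 and the desmosomal cadherin Dsg2 by -0.03, each with overlapping groups. The other 3 Pkp2 probe sets went the other way, at 0.02 to 0.16, and none of them passed the unadjusted threshold. All 6 probe sets of Dsg2 were dim, the brightest at 3.83 ± 0.12 in wild type (SD, n = 3). They disagreed: one differed by -0.25 and passed the unadjusted threshold, and another differed by 0.19 without passing, both with groups that did not overlap. Of 10 further desmosome genes measured, 1 was higher and 1 lower by unadjusted p, near the 8.58% and 8.72% of all genes. The periplakin gene Ppl differed by 0.29 and the desmosomal cadherin gene Dsg1a by -0.30.

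Of the actin linkers, Vcl alone passed the unadjusted threshold. Vcl encodes vinculin, which anchors actin at adhesion sites. It was at 8.34, 8.36 and 8.41 in wild type and 8.59, 8.82 and 8.77 in knockout. The groups did not overlap and the wild-type arrays were tight, with a difference of 0.36 (SE 0.09, 95% interval 0.14 to 0.57; limma adjusted p = 0.207). The second Vcl probe set differed by -0.04, and the mean of both by 0.16. Actn4 differed by 0.13 and Actn1 by 0.04, both encoding actin-bundling alpha-actinins, and Ezr, which encodes ezrin, by 0.06. The second Ezr probe set differed by -0.22 and a dimmer Actn1 probe set by -0.14. Both had groups that did not overlap, and neither passed the unadjusted threshold. The remaining Actn1 probe set differed by 0.06.

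Espn encodes espin, the actin bundler that marks the ectoplasmic specialization, and it is the only one of the 35 genes on chromosome 4 in the RefSeq annotation, with 6 protein-coding genes between it and Phf13. Its values were 7.07, 6.76 and 6.50 in wild type and 6.82, 6.56 and 6.24 in knockout. The groups overlapped, and the difference of -0.24 (95% interval -0.65 to 0.18) did not pass. Of the genes between them, Tas1r1 fell by 3.74 and Zbtb48 by 0.97, with limma adjusted p of 7.7e-06 and 0.0153, Klhl21 differed by -0.46, and Nol9, Plekhg5 and Tnfrsf25, the nearest to Espn, by 0.01 to 0.12. Whether flanking sequence of the targeted allele bears on Espn was not tested.

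Integrins of Sertoli cells bind laminin, and alpha-6 beta-1 is known at the ectoplasmic specialization. Itga6 was at 6.93, 6.96 and 6.97 in wild type and 7.23, 7.34 and 7.37 in knockout. Both groups were tight and did not overlap, with a difference of 0.36 (SE 0.08, 95% interval 0.17 to 0.55; limma adjusted p = 0.188). The second Itga6 probe set was at 6.03, 6.04 and 5.65 in wild type and 6.0, 5.90 and 5.81 in knockout, with overlapping groups and a difference of -0.0033. The mean of both probe sets differed by 0.18. Its partner Itgb1 differed by 0.22, from 6.74 ± 0.16 to 6.95 ± 0.11 (SD, n = 3 each), with overlapping groups. Of the other 5 Itgb1 probe sets 4 were also above 0, and 2 of these, both dim, passed the unadjusted threshold.

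**Figure D2:**
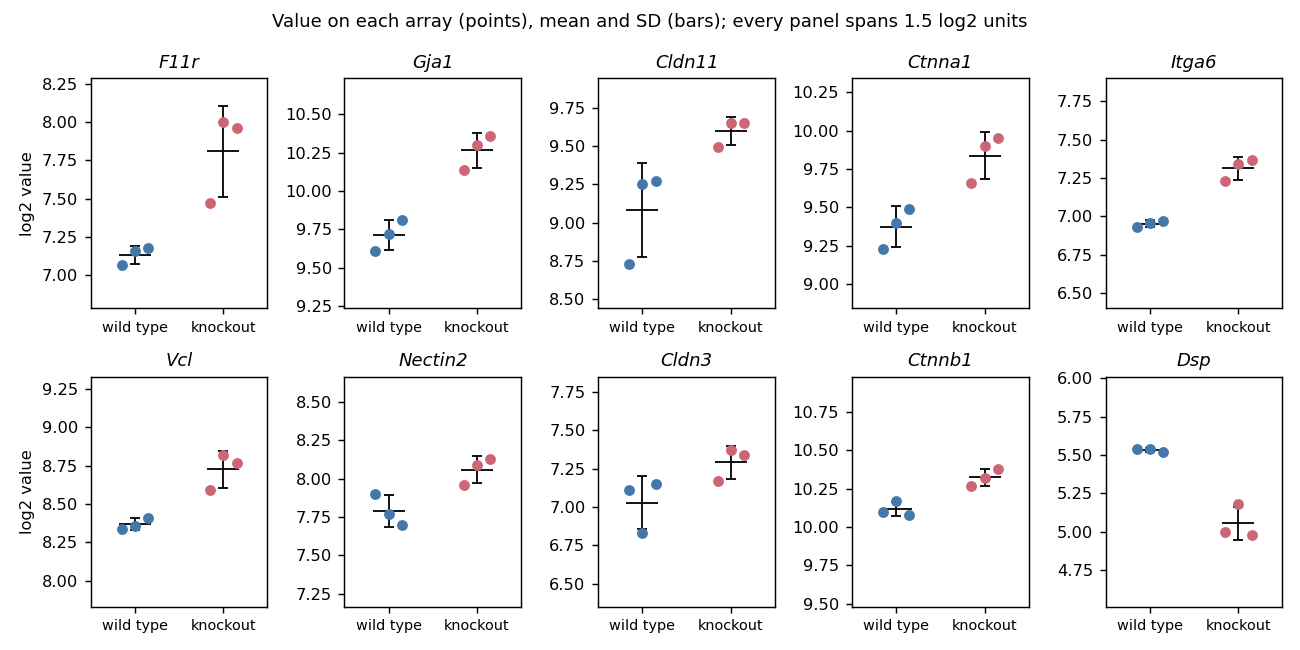
Log2 value of the 10 junction genes with an unadjusted p under 0.05 on each array (points), with the mean and SD of each genotype (n = 3); every panel spans 1.5 log2 units. The genotypes do not overlap in any panel, and knockout 1, the leftmost knockout point, is the lowest of the knockout points in all 9 genes that were higher.

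Probe sets of the same gene often disagreed, so the choice of 1 per gene mattered. Of the 35 genes, 25 had several probe sets. Of all 96 probe sets, 17 were higher and 5 lower by unadjusted p, against 6.81% and 8.31% of all 45037 (15.1% in either direction). Probe sets of 1 gene are not separate observations, and of the 17 Gja1 gave 5 and Ctnna1 and Itgb1 2 each. By limma 0 of the 96 passed the adjusted threshold, against 0.0999%. Groups did not overlap for 22 higher and 6 lower probe sets, against 8.62% and 10.7% of all (19.3% in either direction). With the mean of all probe sets of a gene in place of the brightest, 4 genes were higher, namely Gja1, F11r, Cldn11 and Itgb1, and Dsp was lower. Dim probe sets had a part in these means: 23 of the 96 had a mean below the lower quartile of the arrays.

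**Figure D3:**
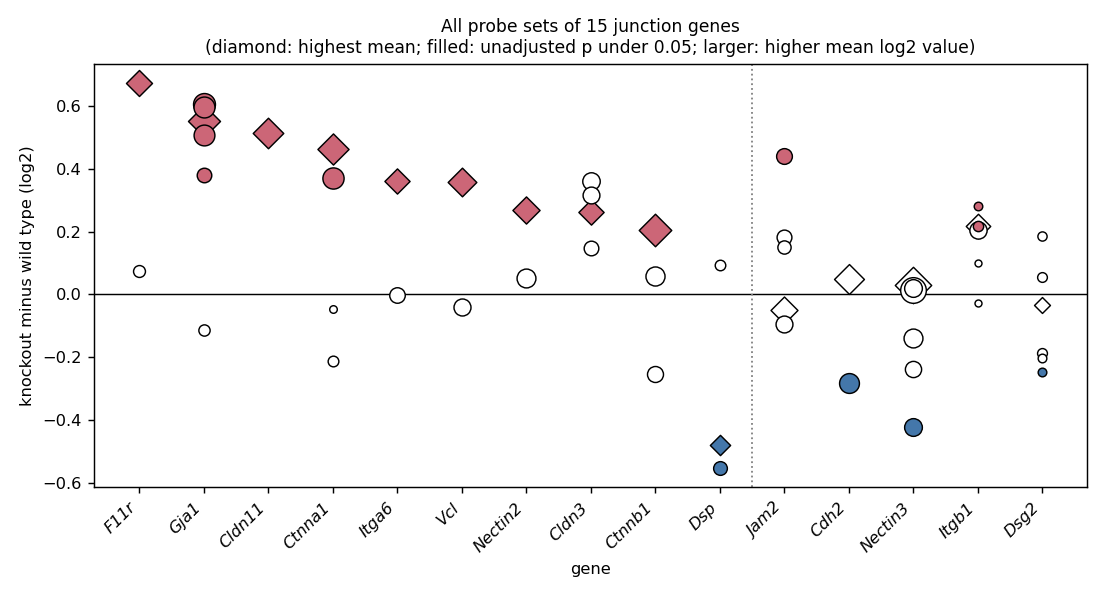
Knockout minus wild-type difference (log2) of every probe set of the 10 genes past the unadjusted threshold (left of the dotted line) and of 5 genes in which the brightest probe set did not pass it but at least 1 other did (right, chosen after their values were seen); diamonds mark the probe set with the highest mean, larger symbols a higher mean, and filled symbols an unadjusted p under 0.05. Gja1 has 5 filled probe sets between 0.38 and 0.61, whereas Vcl, Itga6 and F11r each have 1 filled and 1 open.

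Inside the 2 sets of arrays the 10 genes past the threshold kept their direction in both, whereas of the other 25 genes 10 had the same sign in both and 15 opposite signs. The first set compares knockout 1 with wild type 1 and 2, and the second compares knockout 2 and 3 with wild type 3. The groups of these 10 genes do not overlap, so their direction inside each set was fixed in advance. Their agreement between the sets therefore tells nothing about the part of the sets. The 9 higher genes differed by 0.125 to 0.50 in the first set and by 0.205 to 0.80 in the second, and Dsp by -0.54 and -0.44. Ocln differed by -0.06 in the first set and 0.42 in the second, and Gjb2 by 0.45 and -0.04. With the sets as a block, 8 genes were higher and 2 lower, Marveld2 being the second. The part of 18S level and RNA quality in these differences was not tested.

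**Figure D4:**
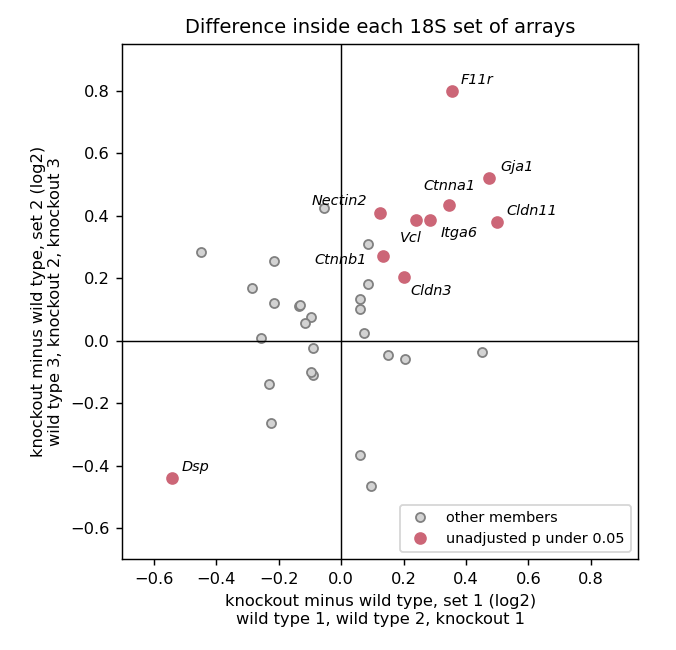
Knockout minus wild-type difference (log2) of each junction gene in the first set (horizontal) and the second (vertical); red points are the 10 genes with an unadjusted p under 0.05 and grey points the other 25. The 9 higher genes all lie in the upper right and Dsp in the lower left, as genes whose groups do not overlap must. F11r is farther from 0 in the second set (0.80) than in the first (0.36).

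Further genes of the same junctions went both ways. Of 105 listed, 93 were measured, with 12 higher (12.9%) and 9 lower by unadjusted p, against 8.58% and 8.72% of all genes, and a median difference of 0.04. By limma 1 passed the adjusted threshold, the integrin gene Itga1, which fell by 0.80 with adjusted p = 0.0153. Its values were 8.36, 8.28 and 8.29 in wild type and 7.45, 7.55 and 7.53 in knockout, far apart. Among genes near the ectoplasmic specialization, Eps8, an actin-capping regulator of the barrier, differed by 0.47, the kinase gene Fyn by 0.42, Itgav by 0.37, Lama2 by 0.29 and the actin bundler Pls3 by 0.29, whereas Itga2 differed by -0.42. The moesin gene Msn differed by 0.33. Of 18 further tight junction and polarity genes, 3 were higher and 2 lower by unadjusted p. The 2 lower were Cgnl1, which encodes paracingulin, at -0.49, and Pard6g, at -0.30. The 3 higher differed by up to 0.31 and, by order of p, are not among the 12 named here. Tgfb3, a cytokine known to loosen the barrier, had means of 5.83 ± 0.02 and 6.27 ± 0.21 (SD, n = 3 each), a difference of 0.43. Of 15 further claudins only Cldn23 passed the unadjusted threshold, with 0.31. Of these 12 genes only Itga1 passed over all probe sets; the smallest limma adjusted p of the others was 0.198.

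Markers of Sertoli cells were higher beside the junction genes. Of 14 Sertoli markers measured out of 16 listed, none of them a junction gene, all 14 were above 0 and 11 were higher at an unadjusted p under 0.05, with a median of 0.42 and a range from 0.15 to 0.71. Their mean level ran from 9.05 to 9.08 on the wild-type arrays and from 9.36 to 9.54 on the knockout arrays. The 9 higher junction genes, at 0.21 to 0.67, lay inside the range of these markers, but the threshold that picked them leaves out small differences. Over all 35 junction genes the median was 0.03. None of the 14 markers passed the adjusted threshold in limma. The part of cell makeup in the junction gene differences was not tested.

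Other cell types were measured beside them, with 8.58% of all genes higher and 8.72% lower by the same rule. Of 11 myoid and stromal genes 4 were higher and 0 lower, with mean levels of 7.34 to 7.72 in wild type and 7.69 to 8.06 in knockout. Set by set, their median difference was -0.05 and then 0.58. Of 6 Leydig cell genes 2 were higher and 0 lower, with levels of 8.6 to 8.86 and 8.76 to 9.20 and medians by set of -0.03 and 0.26. Endothelial genes, from cells that also express Cldn5 and F11r, had 0 of 10 higher and 1 lower, at 5.14 to 5.19 in wild type and 5.14 to 5.26 in knockout. Macrophage and leukocyte genes had 0 of 10 past the threshold, at 6.63 to 6.82 and 6.53 to 7.21, with medians by set of -0.10 and 0.33. The Sertoli medians by set were 0.34 and 0.41, and those of the spermatocyte genes -0.15 and -0.22. Of 8 spermatocyte genes 0 were higher and 4 lower, at 10.68 to 10.79 and 10.54 to 10.58. Of 8 spermatogonial genes 1 was lower, and of 16 spermatid genes 0 passed. Among 4 adipose genes 2 were higher, at 5.15 to 5.28 and 5.44 to 5.49, and of 6 epididymal genes 0 passed.

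Epithelial genes are of interest beside Dsp. Of 7 genes of duct and rete epithelium 0 were higher and 2 lower: Krt8, a keratin of simple epithelia, differed by -0.74 (limma adjusted p = 0.0974) and Epcam, an epithelial adhesion gene also expressed by germ cells, by -0.45. The others, Krt18, Krt19, Krt7, Pax8 and Cdh16, differed by -0.13 to 0.14. All of these but Cdh16 were dim, with wild-type means of 3.70 to 4.12, so their differences are uncertain. Mean levels of the 7 genes ran from 5.43 to 5.57 in wild type and from 5.33 to 5.42 in knockout. The part of epithelial cells in the Dsp difference was not tested.

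**Figure D5:**
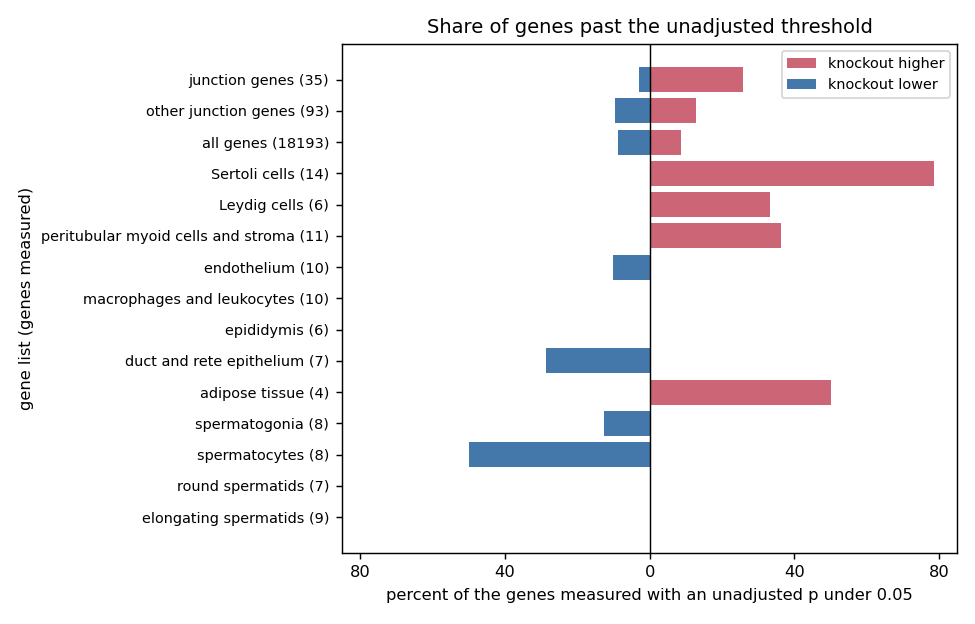
Percent of the measured genes of each list with an unadjusted p under 0.05, to the right for higher and to the left for lower in knockout; the number measured is in parentheses. The junction genes reach 25.7% on the higher side against 8.58% of all genes and 78.6% of the Sertoli markers.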

How the data were processed

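Gene expression of whole testis was measured on 6 Affymetrix arrays, 3 per genotype. The authors deposited log2 values for each probe set. The submitters' processing notes name Affymetrix Expression Console 1.4.1; that the scale is log2 follows from the range of the values. The sources used here do not give how probes were summarized and arrays normalized, nor the annotation's build. No background level came with the values, so dim levels are uncertain, and levels of different probe sets cannot be ranked because probes differ in affinity.

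Of 45101 probe sets, 64 controls were left out and 45037 tested without a filter. The platform annotation gave 34945 probe sets 1 gene symbol. Each gene was represented by its brightest probe set (highest mean of the 6 arrays). All were fitted on genotype with limma 3.58.1 in R 4.3.3 (lmFit, eBayes, two-sided, Benjamini-Hochberg over all probe sets, threshold 0.05); SE and 95% intervals are from this fit. No list was tested as a set. The genes and lists were chosen with earlier results of these data known. Every array's values were given for genes with an unadjusted p under 0.05 (at most 18), the brightest of a role with none, and others where probe sets or position asked for it, chosen after their values were seen. Further junction genes were named up to 12 in order of p, besides the desmosome pair.

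No arrays repeated each other: correlations ran from 0.989 to 0.998. In a simulation of this comparison with 45037 probe sets, 12 of 50 changes of 0.5 were called, 50 of 50 of 1, 2 and 3, and 14 of 44837 unchanged ones. The simulated noise was normal and independent between arrays, without the 18S sets, so these counts need not hold for the real arrays. Start-site sequences are from RefSeq, GRCm38.p6, and 26 of 35 genes matched. Alternatives were blocks (replicate number, runs of the codes in the sample titles, 18S sets), normalization, a filter, moderation, array weights, probe set means and leaving out each array.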

Additional observations from a re-analysis of the deposited data

How the results depend on the processing

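The number of arrays limits the precision, and dim probe sets have no background to be read against. The replicate numbers did not clearly pair the arrays. Correlations of deviations were 0.26, 0.07 and 0.12 for same-numbered arrays and -0.20 to 0.13 for differently numbered ones. With the replicate number as a block, 6 probe sets were lower over the whole array and 2 junction genes, Dsp and Espn, were lower. Over all probe sets, 25 passed as higher and 20 as lower. With title code runs as a block 12 and 4 passed, with an intensity trend and robust moderation 66 and 44, with array weights 1654 and 1532, and with an unmoderated statistic 0 and 1. Among probe sets above the median level 42 passed as lower. Leaving out 1 array gave 8 to 178 higher and 4 to 998 lower, the most without wild type 3.

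Of the junction genes, 4 were higher with the mean of probe sets and 6 to 11 when 1 array was left out, the fewest without knockout 2 or knockout 3. With title code runs or 18S sets as a block, 2 were lower. Groups that do not overlap numbered 2 on the lower side with probe set means and 2 to 5 with 1 array left out, which itself makes separation easier. Past the adjusted threshold were 1 with the intensity trend (Gja1), 7 with array weights (Cldn11, Ctnna1, Dsp, F11r, Gja1, Itga6 and Vcl) and 0 to 1 with 1 array left out. Their median difference ran from 0.0183 to 0.0833 with 1 array left out and was -0.0032 with array weights. The further junction genes gave 7 to 12 higher and 5 to 10 lower with 1 array left out; under the other settings the most were 15 higher (quantile normalization, array weights, probe set means) and 12 lower (array weights). The Sertoli median was 0.35 with probe set means. None of the 10 genes, nor Phf13, changed direction in any of 16 alternatives. Their groups do not overlap, so leaving out 1 array or blocking on the 18S sets could not change a direction. Settings that alter only the moderation leave the difference as it was. Gja1, F11r, Cldn11 and Dsp stayed past the unadjusted threshold in all 16. The cause of these changes was not tested.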
